A study of Mus musculus with 6 samples.

Results

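The antioxidant defence genes described here are Nfe2l2, which encodes the transcription factor NRF2, and 9 genes of enzymes that NRF2 induces or that remove superoxide and peroxides: Nqo1, Hmox1, Gclc, Txnrd1, Sod1, Sod2, Sod3, Cat and Gpx3. They were chosen by symbol, and all 10 were found among the 25894 Ensembl gene identifiers of the deposited table. They were measured by RNA sequencing of inguinal white adipose tissue, a fat depot under the skin of the groin, in 6 female C57BL/6N mice, with 1 library per mouse. Group SF 8w-SR 2w, called SF-SR here, held 3 mice, given as 15 weeks old, that underwent 8 weeks of sleep fragmentation followed by 2 weeks of sleep recovery. The control group held 3 mice labelled only as control, and every mouse was fasted for 10 h before its fat was taken. Both groups share the strain, the fasting and the depot, no group was sampled before recovery, and the comparison asks what still differs once recovery sleep has been allowed.

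NRF2 is held in the cytoplasm by KEAP1 and degraded until oxidants or electrophiles modify KEAP1. Freed NRF2 pairs with small MAF proteins and binds antioxidant response elements, and so turns on genes of glutathione synthesis, thioredoxin reduction, quinone reduction and haem breakdown. Superoxide dismutases turn superoxide into hydrogen peroxide, which catalase, glutathione peroxidases and peroxiredoxins then remove. Fat cells handle large fluxes of lipid through mitochondria and peroxisomes, both sources of these oxidants, and they also secrete glutathione peroxidase 3.

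Values, called normalised read counts here, are the deposited signal, which is taken to be reads per gene divided by a size factor for each library. Each library held between 15610201 and 19703569 recovered reads, and the lowest value of any of the 10 genes in any library rested on 63 reads, for Nqo1. All 13 adipocyte markers looked up, such as Adipoq and Plin1, were detected in every library, with a summed normalised count of 334049 to 630841 in SF-SR mice and 188483 to 476098 in controls. Tissue make-up differed between libraries of both groups. The sum of 14 B and plasma cell markers was 36955 in SF-SR 2, 95174 in control 2 and 24969 in control 3, and 1880 to 3545 in the other libraries, with 2 or 3 of the markers at 0 in each of those. The sum of 13 skeletal muscle markers was 98988 in SF-SR 1 and 12747 in control 2, and 215 to 2369 elsewhere. Controls 2 and 3 also stood apart in base composition. Across genes, the Spearman rho between a library's deviation and transcript GC content was -0.28 and -0.27 in these controls and 0.14 to 0.37 in the other libraries. In bulk tissue, fewer cells of a type and less RNA per cell cannot be told apart.

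None of the 10 genes passed an FDR of 0.05 in the comparison of SF-SR with control mice. With all 6 mice, 9 of the 10 fitted log2 differences lay above 0, with a median of 0.35, against 51.6% of the 22290 genes tested and a median of 0.02. These figures moved with the libraries used. Without SF-SR 1, 7 of the 10 lay above 0 with a median of 0.15, and without the libraries highest in muscle markers, SF-SR 1 and control 2, 6 of the 10 with a median of 0.05. With a B cell marker score as a covariate 6 of the 10 lay above 0, with a median of 0.26. The fitted log2 differences (SF-SR minus control) ran from -0.09 for Txnrd1 to 1.32 for Sod1, with the extracellular and cytosolic superoxide dismutases, the secreted peroxidase Gpx3 and Nfe2l2 itself furthest above 0. In limma, 0 of the 10 genes were called, beside 0 of all genes tested (0%), and the lowest adjusted p among the 10 was 0.697. Without adjustment, limma put Sod3 alone among the 10 at a p under 0.05, against 5.39% of all genes in either direction and 3.24% in the higher direction. edgeR and DESeq2 on recovered reads also called 0 of the 10, with 1 and 2 of them at an unadjusted p under 0.05. Over all genes both called 0, with 754 of 16141 (4.67%) and 1186 of 25776 (4.6%) at an unadjusted p under 0.05. The groups overlapped for each of the 10 genes, whereas they did not overlap for 8.59% of all genes tested. An exact permutation test of 3 against 3 mice cannot go below a two-sided p of 0.1, so no such test was run.

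**Figure D1:**
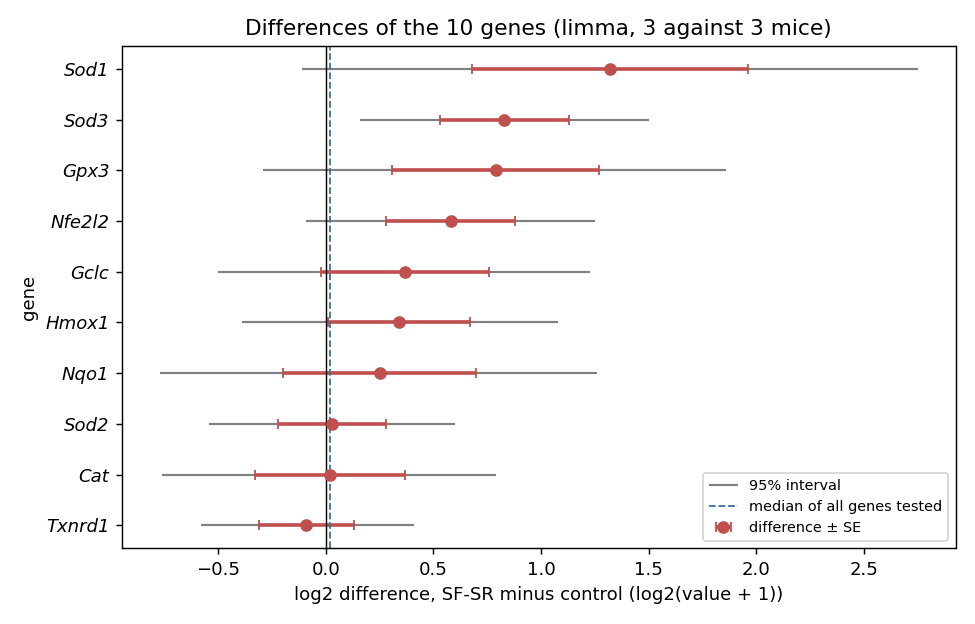
Log2 difference (x axis, log2(value + 1) scale) of each of the 10 genes (y axis), SF-SR minus control; red bars are the SE and gray lines the 95% interval of limma, and the dashed line is the median of all genes tested. The interval of Sod3, from 0.16 to 1.5, is the only interval that lies wholly above 0, and its adjusted p was 0.697.

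Nfe2l2 encodes NRF2, the regulator of the group. Its normalised counts were 2499, 1447 and 2304 in SF-SR mice 1, 2 and 3, and 1805, 1323 and 1036 in controls 1, 2 and 3. SF-SR 1 and 3 were the highest libraries and controls 2 and 3 the lowest, while SF-SR 2 lay below control 1. The means were 2083 ± 559 (SD, n = 3) and 1388 ± 389. The fitted log2 difference was 0.58 (SE 0.30, 95% interval -0.09 to 1.25), and the limma adjusted p was 0.697. It kept its sign under all 22 other settings, from 0.37 to 0.84.

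The antioxidant response element is the regulatory sequence that ties NRF2 to its targets, so promoter windows were searched for its core, TGACNNNGC, on both strands. The windows are RefSeq's on GRCm38.p6, from 250 bases before to 50 after each start site. The core can overlap sites of AP-1 factors, which bind TGACTCA. Windows were found for 7 of the 10 genes, which left out Hmox1, Gclc and Sod3. Cores were found for 3 of the 7, Nfe2l2, Txnrd1 and Sod1. The shares were 14.0% of all 27025 genes with a window and 19.4% of 139 genes of the surrounding lists described below. By window, cores were found in 3 of 9, against 12.4% of all 32851 windows. These 3 windows are shown because they hold the core, which is in capitals. Each is written 5′ to 3′ on the strand of its gene. That of Nfe2l2 is at chr2:75704614-75704913 on the minus strand, with the core on the gene's strand at -240 from the start site. The Txnrd1 window that holds it, among 3, is at chr10:82858956-82859255 on the plus strand, with the core on the opposite strand at -92. That of Sod1 is at chr16:90220512-90220811 on the plus strand, with the core on the opposite strand at -56. A match is a description of letters and not of NRF2 binding. Sequence outside the windows was not searched, so a gene without a match may hold the core elsewhere.
Nfe2l2: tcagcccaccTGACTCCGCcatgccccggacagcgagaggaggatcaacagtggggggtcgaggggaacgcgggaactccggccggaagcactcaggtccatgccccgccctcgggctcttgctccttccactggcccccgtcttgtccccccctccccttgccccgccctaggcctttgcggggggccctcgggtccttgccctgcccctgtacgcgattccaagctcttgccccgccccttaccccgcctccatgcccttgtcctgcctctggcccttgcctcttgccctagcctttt
Txnrd1: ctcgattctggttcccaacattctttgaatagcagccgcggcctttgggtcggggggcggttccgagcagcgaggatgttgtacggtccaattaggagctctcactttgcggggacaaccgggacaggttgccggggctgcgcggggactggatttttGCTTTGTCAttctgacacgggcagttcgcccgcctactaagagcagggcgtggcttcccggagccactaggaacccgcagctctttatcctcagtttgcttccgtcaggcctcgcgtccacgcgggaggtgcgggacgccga
Sod1: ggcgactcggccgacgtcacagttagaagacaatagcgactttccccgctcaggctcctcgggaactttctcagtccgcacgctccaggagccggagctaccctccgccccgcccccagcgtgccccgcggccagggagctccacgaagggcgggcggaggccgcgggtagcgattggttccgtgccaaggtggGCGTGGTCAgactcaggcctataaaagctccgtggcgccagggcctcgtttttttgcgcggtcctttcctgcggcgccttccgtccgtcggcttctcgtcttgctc

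The 4 classical NRF2 targets did not differ from controls beyond the spread between mice. Nqo1, a quinone reductase widely read as an indicator of NRF2 activity, had normalised counts of 152.4, 66.75 and 150.8 in the SF-SR mice and 126.8, 71.21 and 101.4 in controls. SF-SR 1 and 3 were high and SF-SR 2 was the lowest of all libraries, so the SF-SR mice spanned the whole range of the controls. Its log2 difference was 0.25 (SE 0.45, 95% interval -0.77 to 1.26; limma adjusted p = 0.869). Without SF-SR 2 the log2 difference was 0.64, with a limma adjusted p of 0.799.

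Hmox1, haem oxygenase 1, which splits haem into biliverdin, iron and carbon monoxide, had normalised counts of 779.6, 498.4 and 363.9 in the SF-SR mice. Controls had 340.0, 403.5 and 505.8. SF-SR 1 was the highest library and the other SF-SR mice lay within the control range. The log2 difference was 0.34 (SE 0.33; limma adjusted p = 0.757), and 0.05 without SF-SR 1. Macrophages are a rich source of Hmox1, and the summed count of 14 macrophage markers was likewise highest in SF-SR 1, at 32770, with 26774 and 12068 in SF-SR 2 and 3 and 19159, 31658 and 27116 in the controls. No macrophage marker was at 0 in any library, and their part in the Hmox1 values was not tested.

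Gclc encodes the catalytic subunit of glutamate-cysteine ligase, the rate-limiting enzyme of glutathione synthesis. Its normalised counts were 1872, 1355 and 4346 in SF-SR mice and 1960, 1637 and 1607 in controls. SF-SR 3 alone was far above the rest, SF-SR 1 lay within the control range and SF-SR 2 below it, and the highest library had 3.21 times the lowest. The log2 difference of 0.37 (SE 0.39; limma adjusted p = 0.770) turned to -0.12 without SF-SR 3.

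Txnrd1, the cytosolic selenoprotein that reduces thioredoxin, was the steadiest of the group. Its normalised counts were 1232, 1211 and 1496 in SF-SR mice and 1254, 1466 and 1453 in controls. The highest library had 1.24 times the lowest, and only 2.8% of all genes tested had a smaller SD within groups. Its log2 difference was -0.09, with a 95% interval from -0.58 to 0.41 (limma adjusted p = 0.911).

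**Figure D2:**
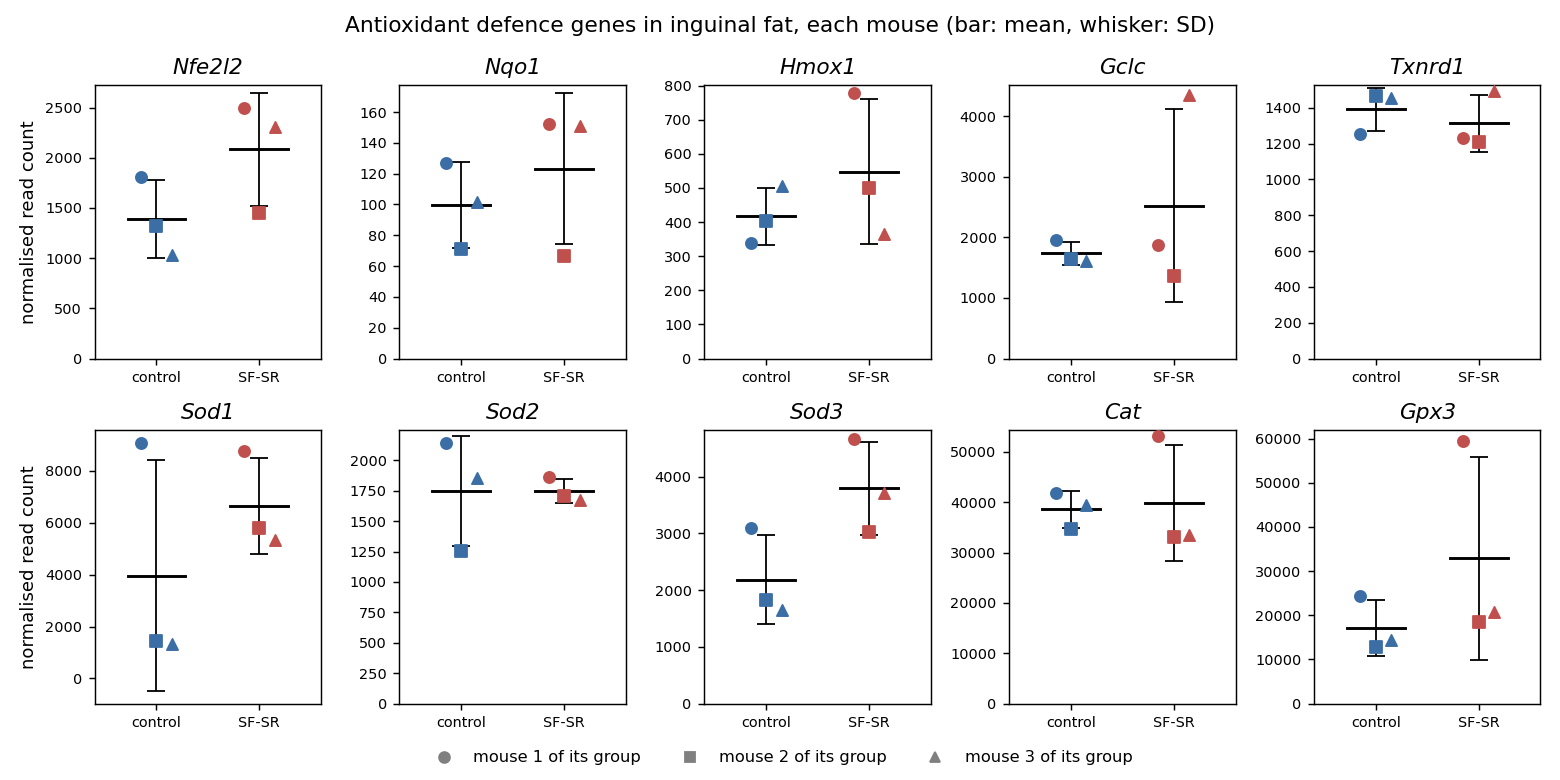
Normalised read count of each of the 10 genes in each mouse, controls in blue and SF-SR mice in red. The y axis is linear and includes 0, with the Sod1 axis running below 0 to hold its SD whisker. Marker shapes are the replicate numbers of the labels, and whether these pair mice is not settled. Bars are means and whiskers the SD over 3 mice. Controls 2 and 3 are the lowest libraries for Sod1, at 1454 and 1321, and the groups overlap for every gene.

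The superoxide dismutases differed from each other in how their levels were spread over the mice. Sod1, the copper and zinc enzyme of the cytosol, had normalised counts of 8750, 5780 and 5347 in the SF-SR mice and 9084, 1454 and 1321 in controls. Control 1 was the highest of all 6 libraries, and controls 2 and 3 were far below every other library. The means were 6626 ± 1852.5 (SD, n = 3) and 3953 ± 4444. The fitted log2 difference of 1.32 (SE 0.64, 95% interval -0.11 to 2.75) had a limma adjusted p of 0.697.

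Summed markers of several cell types, adipocytes among them, were likewise lowest in controls 2 and 3. The sum of 13 adipocyte markers was 630841, 359712 and 334049 in SF-SR mice and 476098, 188483 and 241263 in controls. The sums of smooth muscle and pericyte markers and of red blood cell markers were lowest in these libraries too. Those of B and plasma cell, T cell, macrophage, neutrophil, skeletal muscle, blood endothelium and progenitor and fibroblast markers were not. Fitted differences lay above 0 for all 10 smooth muscle and pericyte markers and for 3 of the 7 red blood cell markers. Of the latter, 1 was at 0 in each of SF-SR 2, SF-SR 3 and control 3. The summed count of 13 mammary epithelium markers was 30558, 35554 and 39471 in SF-SR mice 1, 2 and 3 and 41646, 9605 and 11444 in controls 1, 2 and 3. All 13 had fitted differences above 0, 0 passed an FDR of 0.05 by limma, and none was at 0 in any library. The sum of 10 skin keratinocyte markers was 3460, 4654 and 6908 in SF-SR mice and 5459, 1468 and 1195 in controls, with up to 2 of the markers at 0 in a library. That of 8 brown and beige adipocyte markers was 1663, 5161 and 3672 against 5290, 986.8 and 1149, with 1 of them at 0 in control 2 and in control 3. As with Sod1, control 1 lay with the SF-SR mice and controls 2 and 3 were the lowest libraries. The part of these cell types in the Sod1 values was not tested.

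Whether Sod1 passed depended on how control 1 was treated. Without it the log2 difference was 2.22 and passed, with a limma adjusted p of 0.0197. limma-voom with quality weights, which gave control 1 a weight of 0.24, the lowest of the 6, put Sod1 at 2.02 with an adjusted p of 0.0451. Without control 2 or control 3 it was 0.90 and 0.83, and without SF-SR 1 and control 2 together 0.68, with limma adjusted p-values of 0.936, 0.972 and 0.959. edgeR on recovered reads gave 0.76 (adjusted p = 0.744). For SF-SR 1 and 3 against control 1 alone, the libraries low in B cell markers, the log2 difference turned to -0.41, a comparison with a lone control that is assumed to vary like the SF-SR mice.

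Library-wide trends moved with Sod1. Its principal messenger RNA is short, at 641 bases, and controls 2 and 3 had rho values of 0.18 and 0.29 with transcript length, against -0.23 to 0.06 in the other libraries. With the GC and length trends of each library removed, the Sod1 log2 difference was 0.91, and 1.63 without control 1, with limma adjusted p-values of 0.896 and 0.081. The lower values depended on the transcript. When the 3970 bases of its longest annotated transcript were used in place of the principal transcript, Sod1 had 1.41 with all 6 mice, above the 1.32 of the deposited values, and 2.39 without control 1, with limma adjusted p-values of 0.883 and 0.0263.

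Sod3, the secreted dismutase of the extracellular matrix, had normalised counts of 4655, 3021 and 3708 in SF-SR mice and 3090, 1823 and 1645 in controls. Control 1 lay just above SF-SR 2, and otherwise every SF-SR mouse was above every control. The means were 3795 ± 820 (SD, n = 3) and 2186 ± 788. The log2 difference was 0.83 (SE 0.30), the unadjusted p by limma was 0.0201, and the adjusted p was 0.697. Sod3 kept its sign under all 22 other settings, which refit the same mice or some of them, from 0.43 to 1.11. Sod3 passed without control 1, at 1.11 with a limma adjusted p of 0.0489, and with limma-voom with quality weights, at 1.06 with an adjusted p of 0.0451. These were 2 of the 10 genes, Sod1 and Sod3, in each of the settings, beside 2.53% of all genes called higher without control 1 and 4.33% with quality weights. With GC and length trends removed as well as control 1, Sod3 had a log2 difference of 1.03 and did not pass (limma adjusted p = 0.172). Vascular smooth muscle is a known source of Sod3. The summed count of 10 smooth muscle and pericyte markers was 17001 to 25272 in SF-SR mice and 12717 to 18186 in controls, all 10 had fitted differences above 0, none was at 0 in any library, and their part in the Sod3 value was not tested.

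Sod2, the manganese enzyme of the mitochondrial matrix, did not share this pattern in the values as deposited. Its normalised counts were 1859, 1703 and 1675 in SF-SR mice and 2141, 1255 and 1851 in controls, so that the SF-SR mice lay inside the control range. The group means were 1746 ± 99.1 (SD, n = 3) and 1749 ± 452. The log2 difference was 0.03, with a 95% interval of -0.54 to 0.60 (limma adjusted p = 0.976). With GC and length trends removed, Sod2 came closer to the Sod1 pattern: controls 2 and 3 were lowest, at centred log2 values of -0.98 and -0.28, and control 1 highest at 0.55, beside 0.54, 0.20 and -0.03 in SF-SR mice. The Sod2 difference was then 0.48, and 0.87 without control 1, with limma adjusted p-values of 0.896 and 0.208.

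Hydrogen peroxide is removed by Cat, the catalase of peroxisomes, and by Gpx3, a selenium-containing peroxidase that is secreted into plasma. Cat had normalised counts of 53120, 33057 and 33507 in SF-SR mice and 41779, 34609 and 39436 in controls. SF-SR 1 was the highest library and SF-SR 2 and 3 the lowest. The log2 difference was 0.02 (SE 0.35, 95% interval -0.76 to 0.79; limma adjusted p = 0.992).

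Gpx3 had normalised counts of 59459, 18422 and 20734 in SF-SR mice and 24347, 12717 and 14335 in controls. SF-SR 1 was far above every other library, control 1 came next, and SF-SR 2 and 3 lay between control 1 and the other controls. The means were 32872 ± 23054.1 (SD, n = 3) and 17133 ± 6300. The log2 difference of 0.79 (SE 0.48; limma adjusted p = 0.697) was 0.25 without SF-SR 1, 0.32 with GC and length trends removed, and 0.07 without the 2 libraries highest in muscle markers, SF-SR 1 and control 2. SF-SR 1 also had the highest sum of adipocyte markers, 630841, and of muscle markers, and their part in its Gpx3 and Cat counts was not tested.

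Levels were compared between genes only per length, as the normalised count per kb of the principal transcript. Gpx3, with a mean of 15685 counts per kb, and Cat, with 15022, ranked above 99.8% of all genes tested, and their order is not resolved because their ranges over the 6 libraries overlap. Sod1 followed at 8252, with a range from 2061 to 14171. On this length every library had more Sod1 per kb than any library had Sod3, which averaged 800 counts per kb. Sod3, Nfe2l2 at 701, Gclc at 622, Txnrd1 at 383, Hmox1 at 307 and Sod2 at 298 formed a series in which the ranges of neighbours overlapped. Nqo1, at 71.8 counts per kb with a highest library of 98.1, lay below every library's level of all the other members and above 55.9% of all genes tested. With the union of annotated exons as the length, Sod1 averaged 1332 counts per kb and lay behind Cat and Gpx3 and ahead of Sod3 in the mean. On that scale Sod1 was at 366 and 333 counts per kb in controls 2 and 3, below Sod3 at 488 and 440, so the order of Sod1 and Sod3 is not resolved.

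The 10 genes did not move together over the mice. SF-SR 1 was the highest library for 6 of them (Nfe2l2, Nqo1, Hmox1, Sod3, Cat and Gpx3), SF-SR 3 for Gclc and Txnrd1, and control 1 for Sod1 and Sod2. SF-SR 2 was the lowest library for 4 (Nqo1, Gclc, Txnrd1 and Cat), so that the lowest values were found in both groups. The median of the 10 centred log2 values was 0.56 in SF-SR 1, -0.17 in SF-SR 2 and 0.27 in SF-SR 3, and 0.13, -0.39 and -0.17 in controls 1, 2 and 3. Controls 2 and 3 were the lowest 2 libraries for Nfe2l2, Sod1, Sod3 and Gpx3, an order found for 20.6% of all genes tested. That order was picked out after the values were seen.

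**Figure D3:**
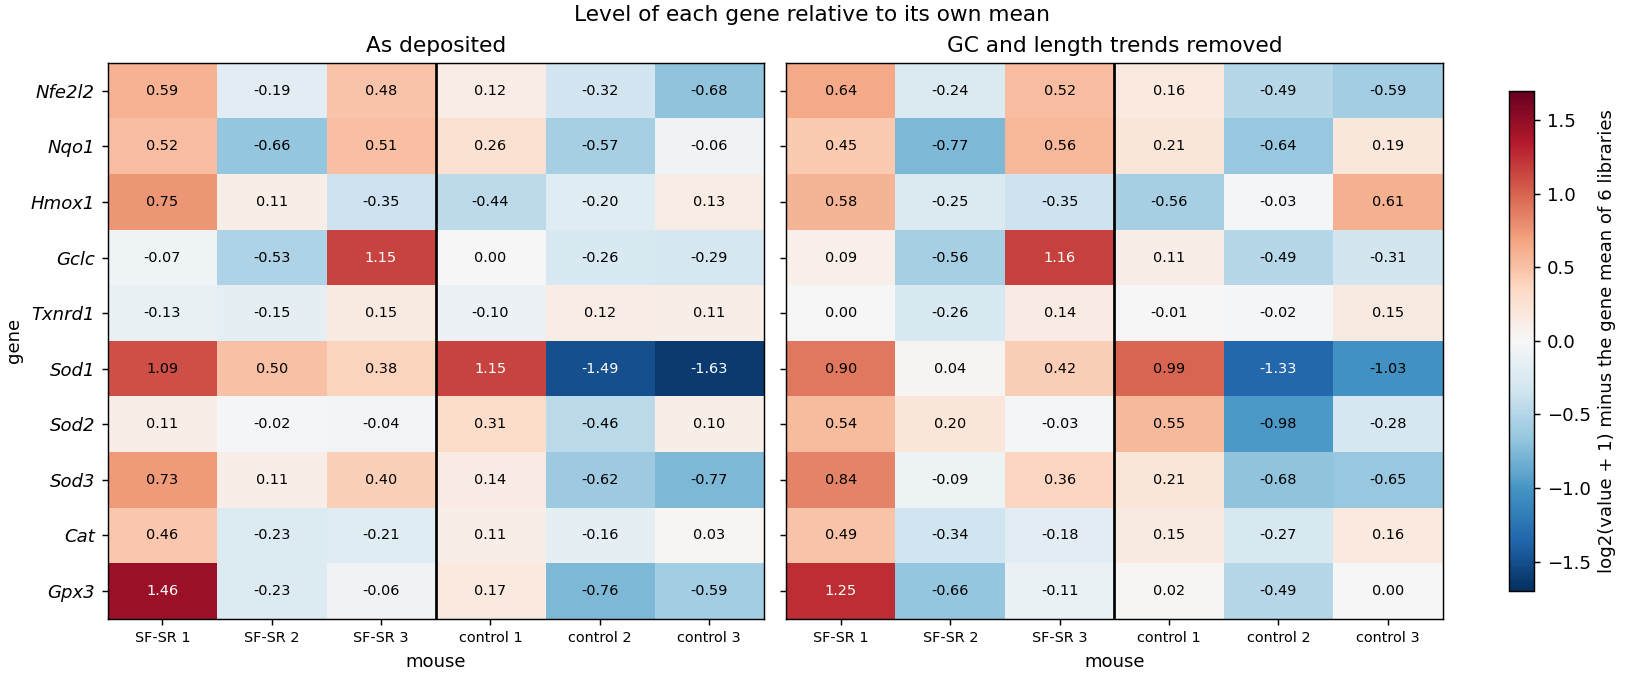
Log2(value + 1) of each of the 10 genes (rows) in each mouse (columns) minus the gene's mean over the 6 libraries, as deposited (left) and with the GC and length trends of each library removed (right). Sod1 lies at -1.49 and -1.63 in controls 2 and 3 as deposited, and at -1.33 and -1.03 with the trends removed.

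The genes whose centred log2 values lay closest to those of Nfe2l2 over the 6 libraries, among 12927 genes with a symbol and a mean of at least 50, were Fam161a, Zfp790 and Dnaja1, with root mean square differences of 0.073, 0.108 and 0.109. Closest to Nqo1 were Idh1, Acsm5 and Cdh11, at 0.098, 0.107 and 0.111. Idh1, a cytosolic enzyme that makes NADPH, had a log2 difference between groups of 0.15. For Sod1, added after its values were seen, the closest were Nop10, Gm12854 and Pfdn1, at 0.09, 0.1 and 0.115, with log2 differences between groups of 1.43, 1.47 and 1.47. With 6 libraries and this many genes, close profiles are a description only.

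**Figure D4:**
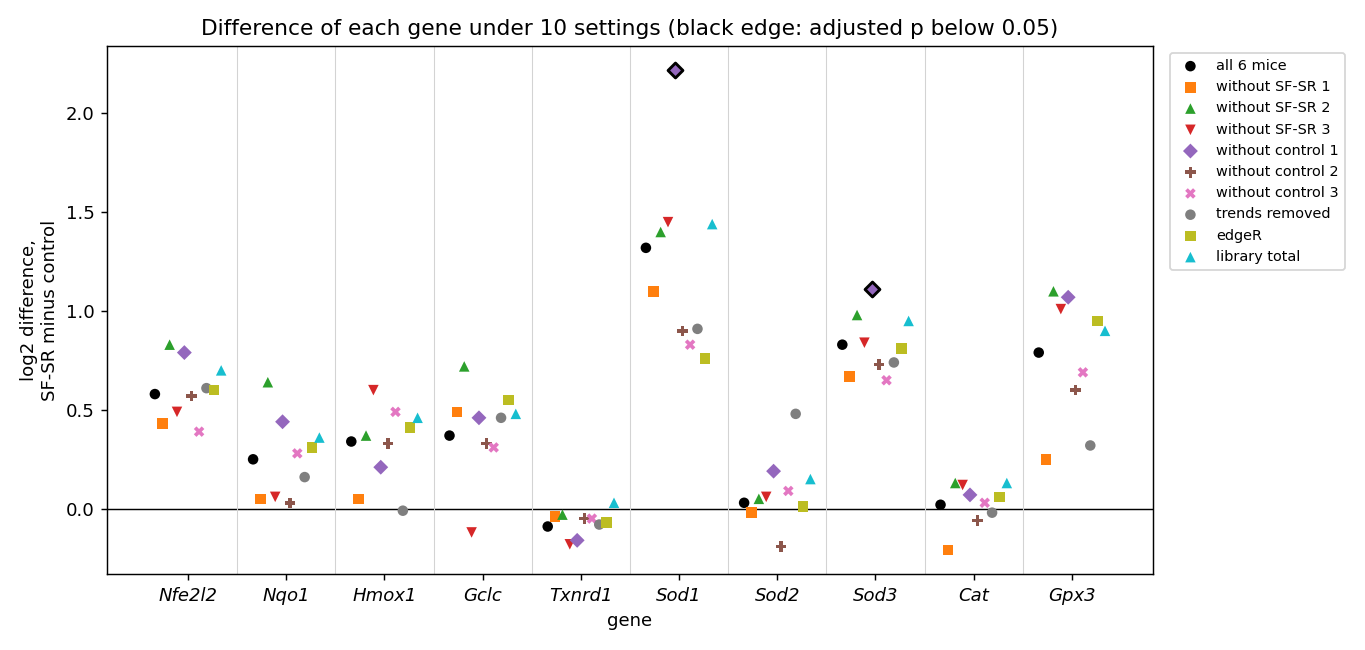
Log2 difference (y axis) of each of the 10 genes (x axis) with all 6 mice, without each mouse in turn, with GC and length trends removed, by edgeR and with scaling by library total; a black edge marks an adjusted p under 0.05. Sod1 and Sod3 have such an edge without control 1, at 2.22 and 1.11, and Gclc turns to -0.12 without SF-SR 3.

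Of 171 further genes in 9 lists around this pathway, 0 passed an FDR of 0.05 by limma, and 10 were at an unadjusted p under 0.05, 5.85% of them against 5.39% of all genes. Glutathione synthesis and use had 17 of 21 genes above 0 and a median log2 difference of 0.32. Gstt1 and Gstm1, glutathione transferases, were at an unadjusted p under 0.05. Gstt1 had normalised counts of 1018, 688.0 and 745.8 in SF-SR mice and 757.8, 254.3 and 262.9 in controls, a log2 difference of 1.12 (SE 0.42). Gstm1 had 4232, 2567 and 3079 against 3018, 1125 and 1280, a log2 difference of 0.98 (SE 0.38). For both, controls 2 and 3 were the low libraries, as for Sod1 and for the summed adipocyte, mammary epithelium and keratinocyte markers. The part of these cell types in these values was not tested. Controls 2 and 3 were the lowest 2 libraries for 28.7% of the 171 genes and 20.6% of all genes tested. They were the highest 2 for 14.0% and 18.0%. The highest counts in the glutathione list were those of Mgst1, a microsomal glutathione transferase, and Gpx1, the cytosolic glutathione peroxidase. Their log2 differences were 0.25 and 0.40.

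The regulators of NRF2 had 9 of 19 genes above 0. Park7, a redox-sensing protein linked to inherited parkinsonism that stabilises NRF2, was at an unadjusted p under 0.05, with normalised counts of 1817, 1280 and 1238 in SF-SR mice and 1550, 387.7 and 376.5 in controls. Its log2 difference was 1.22 (SE 0.50), and control 1 again lay with the SF-SR mice. Sqstm1, the autophagy receptor that binds KEAP1, and Nfe2l1, a relative of NRF2, had the highest counts and log2 differences of 0.25 and 0.35. Other NRF2 target enzymes had a median of 0.27, with 11 of 18 genes above 0. Cbr1, a carbonyl reductase, had a log2 difference of 1.26 (SE 0.53), and Ephx1, microsomal epoxide hydrolase, of 0.62 (SE 0.25), both at an unadjusted p under 0.05. Ephx1 was higher in each SF-SR mouse (1169, 1063 and 927.3) than in each control (853.7, 584.4 and 641.7). Groups without overlap, in either direction, were found for 8.59% of all genes tested. Ugdh and Akr1b3, with the highest counts here, had -0.18 and -0.05.

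The thioredoxin, peroxiredoxin and glutaredoxin genes lay close to 0, with a median of 0.08 and 0 of 20 genes at an unadjusted p under 0.05. Txnip, the thioredoxin-binding protein, and Prdx1, a peroxiredoxin, had log2 differences of 0.01 and 0.07. NADPH supply had a median of -0.07. Its gene at an unadjusted p under 0.05 was Nadk2, the mitochondrial NAD kinase, with a log2 difference of -0.76 (SE 0.27). Its normalised counts were 754.8, 552.2 and 643.8 in SF-SR mice and 837.7, 1099 and 1420 in controls. The groups did not overlap, as for 8.59% of all genes tested in either direction. Tkt, transketolase, and Me1, malic enzyme, had -0.02 and -0.56.

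Haem breakdown and iron storage genes had a median of 0.02, with Ireb2, an iron-sensing RNA-binding protein, at -0.68 (SE 0.28) and Slc40a1, the iron exporter ferroportin, at -0.76 (SE 0.33). Both were at an unadjusted p under 0.05, in the lower direction that held for 2.14% of all genes. Fth1 and Ftl1, the ferritin chains, had 0.54 and 0.02, and reads of ferritin, Prdx1 and Gstm genes may be shared with near-identical copies. Metal supply and binding genes had a median of 0.24, with Tspo, a mitochondrial membrane protein, at 0.75 and the metallothionein Mt1 at 0.71. Slc40a1 was in that list too. Among selenoprotein genes, 8 of 21 lay above 0. Selenot, a selenoprotein of the endoplasmic reticulum, was at an unadjusted p under 0.05 with a log2 difference of -0.89 (SE 0.33), and Selenop, the selenium carrier of plasma, had -0.50.

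Producers of superoxide and hydrogen peroxide had 7 of 21 genes above 0 and a median of -0.05. Cybb, the catalytic subunit of the phagocyte NADPH oxidase, had normalised counts of 491.4, 1051 and 424.4 in SF-SR mice and 559.5, 4094 and 2635 in controls. Control 1 lay within the SF-SR range, and the log2 difference was -1.59 (SE 0.66; limma adjusted p = 0.697). The libraries with the most Cybb, controls 2 and 3 and SF-SR 2, were also those high in B and plasma cell markers, whose part in the value was not tested. Xdh, xanthine dehydrogenase, had a log2 difference of 0.08.

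As with Sod1, some of these genes passed an FDR of 0.05 without control 1. Of the 10 genes at an unadjusted p under 0.05, Gstt1, Gstm1, Park7 and Cbr1 passed as higher without it, with limma adjusted p-values from 0.0181 for Cbr1 to 0.0357 for Gstm1, and Selenot and Cybb passed as lower, at 0.0370 and 0.0346. These 10 had been picked by p in a fit that shares 5 of the mice, so their share is not read against all genes. Over all 171 genes, 6 passed as higher and 3 as lower without control 1, which is 3.51% and 1.75%, beside 2.53% and 1.26% of all genes tested. Ephx1, Nadk2, Ireb2 and Slc40a1 did not pass without control 1, with limma adjusted p-values of 0.0760, 0.0621, 0.0566 and 0.0678.

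**Figure D5:**
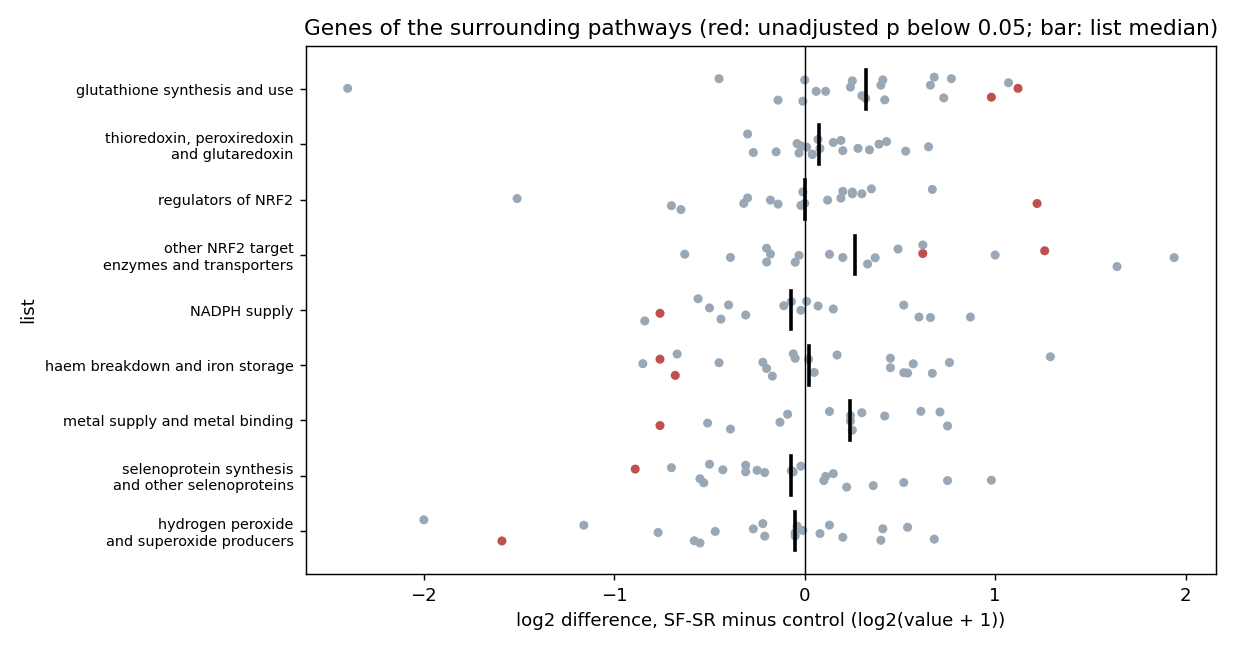
Log2 difference (x axis, SF-SR minus control) of each gene of the 9 surrounding lists (y axis), with genes at an unadjusted p under 0.05 in red and the median of each list as a bar. The genes in red are 10 of 171, 5.85% against 5.39% of all genes tested. They lie above 0 in the glutathione, NRF2 regulator and NRF2 target lists. In the NADPH, haem and iron, metal, selenoprotein and oxidant producer lists they lie below 0. Slc40a1, the only red point of the metal list, is drawn in the haem and iron list too.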

How the data were processed

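The submitters' processing notes name HISAT2 2.0.5, featureCounts 1.5.0-p3, CASAVA and build mm8. Their roles and the normalisation are not given in the sources used here. The deposited table holds a signal value per Ensembl gene and library. In each library 100% of values were whole multiples (within 0.02) of the lowest non-zero value, so the deposited signal is taken as reads over 1 size factor per library. Whether counting used strand is not given in the sources used here.

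limma 3.58.1 with an intensity trend (R 4.3.3) tested log2(value + 1). It covered the 22290 genes whose mean over libraries reached 1, and p-values were adjusted over all of them by Benjamini-Hochberg (FDR 0.05). The fold scale understates changes of low genes. edgeR 4.0.16, DESeq2 1.42.0 and limma-voom were run on recovered reads. The plan allowed for raw counts, and the signal unit led to limma. Trends on GC content and length used GENCODE M21 principal transcripts (99.87% of genes tested) and splines of 4 degrees of freedom. RefSeq promoter coordinates are on GRCm38.p6, while the files carry no coordinates. The limma fit was tested on simulated data.

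The members, lists and tests were chosen with earlier results of these data known. Genes named are the 10 members; of each list, those at an unadjusted p under 0.05 (up to 5) and the 2 most abundant; and the 3 closest profiles to Nfe2l2 and Nqo1. A gene that this rule names is not reported here. Symbols were missing for 33 identifiers, and the listed Trim16l and Hao2 were not matched to the table. Nox1, Noxa1, Dao and Slc30a10 fell below the filter.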

Additional observations from a re-analysis of the deposited data

How the results depend on the processing

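The count of 0 genes past an FDR of 0.05 held under every normalisation, filter, pseudocount and covariate run with all 6 mice, except limma-voom with quality weights, which called 1023 genes, 2 of them among the 10. Leaving out each mouse in turn gave 0 to 844 genes past the threshold, 0 to 2 of the 10 past it, 0 to 3 of the 10 at an unadjusted p under 0.05 and 0 to 54 of the 171 pathway genes, against 2.01% to 24.4% of all genes. The highest of these came without control 1, where 54 is 31.6% of the pathway genes and 24.4% is the share of all genes. Every count above 0 past the threshold came from leaving out control 1. With GC and length trends also removed and control 1 left out, 36 genes passed, or 37 with the longest transcript, with 0 and 1 of the 10 among them, 4 of the 10 and 23 or 26 pathway genes (13.5% or 15.2%) at an unadjusted p under 0.05, against 15.8% or 16.2% of all genes. These settings were chosen after seeing the data.

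The 10 and the pathway genes at an unadjusted p under 0.05 numbered 1 and 10 in the reported fit. They numbered 3 and 54 with quality weights, where the pathway share of 32.9% was that of all genes, 32.9%. They numbered 4 and 34 (19.9%) with the replicate block, against 12% of all genes, and 0 and 2 (1.17%) without the libraries highest in muscle or in B cell markers, against 2.42% and 3.8%. Scaling by library total and DESeq2 each gave 2 of the 10, with 12 (7.02%) and 10 (5.85%) pathway genes. The shares of all genes in these settings were 5.85% and 4.6%. Removing trends gave 0 pathway genes with either transcript choice, against 3.31% of all genes. Whether replicate numbers pair the mice is not settled by these values. Deviations of same-numbered mice had correlations across genes of 0.177, 0.393 and 0.042, against -0.356 to 0.208 for the other pairs. SF-SR 1 and 2 were closest to the control of the same number, and SF-SR 3 was closest to control 1. Under the block 0 of the 10 passed an FDR of 0.05.

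Signs turned only for small differences and for Sod1. Cat turned to -0.07 with the B cell score as a covariate, -0.02 and -0.08 with trends removed (principal and longest transcript), -0.05 with the longest transcript and no control 1, -0.01 with quality weights, -0.06 without control 2, -0.21 without SF-SR 1 and -0.29 without the muscle-high libraries. Sod2 turned to -0.08 with the B cell score, -0.003 with DESeq2, -0.19 without control 2, -0.02 without SF-SR 1, and -0.24 and -0.28 without the libraries high in muscle and in B cell markers. Hmox1 turned to -0.01 and -0.05 with trends removed, and to -0.30 and -0.35 without control 1 as well. Nqo1 turned to -0.05 with the B cell score and -0.17 without the muscle-high libraries, Txnrd1 to 0.03 by library total, which moved the median of all genes to 0.14, and to 0.11 without the B-high libraries, Sod1 to -0.41 without them, and Gclc to -0.12 without SF-SR 3. Leaving out each mouse in turn gave -0.21 to 0.13 for Cat, -0.12 to 0.72 for Gclc and -0.19 to 0.19 for Sod2. The cause was not tested. The lowest count of any of the 10 genes rested on 63 reads, and how much counting error adds to the spread between mice was not computed.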
